A study of Mus musculus with 10 samples.

Results

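Dual specificity phosphatases of the MAP kinases, with the Sprouty and Spred inhibitors that act upstream of them, were followed in CD4+ and CD8+ T cells of the mouse. The set holds 9 genes of the 18193 that were tested: *Dusp1*, *Dusp2*, *Dusp4*, *Dusp5*, *Dusp6*, *Dusp10*, *Spry1*, *Spry2* and *Spred1*. They were chosen by name, with earlier results of these data known, and other genes of the same families are also on the array. All 9 are measured, by 18 probe sets in all. The data are 10 Affymetrix expression arrays of the whole mouse genome, in 5 groups of 2. CD4+ TEM (effector-memory) cells, CD4+ memory cells and CD8+ TEM cells are cells of day 25 of a culture, and naïve CD4+ and naïve CD8+ T cells are the cells before it. The naïve cells came from spleens of wild-type C57BL/6 mice and were sorted as TCRβ+ CD62L+ CD44- cells. For the culture they were kept with irradiated B lymphoma cells positive for LMP1/2A, a line grown from mice in which Cγ1-Cre switches on the Epstein-Barr virus proteins LMP1 and LMP2A in germinal center B cells, with IL-2 and a new addition of irradiated cells every week. The memory group carries the mark CM in its sample titles. By flow cytometry of this culture the study defined central-memory cells as CD62L+ CD44+ and effector-memory cells as CD62L- CD44+, but the gate behind the memory arrays is not given in the sources used here, nor is the age of the mice. Whether the 2 arrays of a group came from separate animals or cultures is not stated, so a p-value here covers only array-to-array spread, which may be technical in the groups other than naïve CD8+ cells, whose arrays differ in a sex-linked transcript.

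MAP kinases of the ERK, JNK and p38 families are switched on downstream of the T cell receptor and of cytokine receptors by phosphorylation of a threonine and a neighboring tyrosine, and the dual specificity phosphatases remove both phosphates. Several of these phosphatase genes are themselves transcribed when the kinases are active, so that the enzymes close a negative feedback loop: *Dusp1*, *Dusp2*, *Dusp4* and *Dusp5* encode inducible nuclear enzymes, *Dusp6* an ERK-specific enzyme of the cytoplasm, and *Dusp10* an enzyme for JNK and p38. Sprouty and Spred proteins act higher in the pathway, where they restrain the step between receptor, Ras and Raf, and their genes are also known as targets of ERK signaling.

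Promoters of the inducible phosphatases *Dusp1*, *Dusp2* and *Dusp5* and of *Spry2*, the gene with the widest range here, are shown because *Spry2* had the largest rise and these phosphatase genes are among those farthest apart between the naïve CD8+ arrays. The sequences are the 250 bases before the transcription start in RefSeq (GRCm38.p6), written 5′ to 3′ on the strand of the gene. RefSeq promoters were matched for 8 of the 9 genes, all but *Dusp4*. Both strands were searched for 5 motifs of factors that act in immediate early transcription, and matches are in capitals: the cyclic AMP response element TGACGTCA, the AP-1 site TGANTCA, the CArG box of serum response factor, the EGR site GCGNGGGCG and the ETS site CCGGAAGT. The *Dusp1* window (chr17:26508473-26508722, minus strand) holds the cyclic AMP response element, with its bases 143 to 136 before the start, a motif found in 1.55% of 32851 promoter windows of the same length. The *Dusp2* window (chr2:127335909-127336158, plus strand) holds the EGR site at 98 to 90 bases before the start (4.7% of windows). In the *Dusp5* window (chr19:53528895-53529144, plus strand) 2 CArG boxes adjoin each other, at 82 to 73 and 72 to 63 bases before the start (CArG box in 1.47% of windows). The *Spry2* window (chr14:105896820-105897069, minus strand) holds none of the 5 motifs, and no member window holds the AP-1 or ETS letters, which are in 6.75% and 2.88% of windows. These matches describe letters in a window and not the binding of a factor.
Dusp1: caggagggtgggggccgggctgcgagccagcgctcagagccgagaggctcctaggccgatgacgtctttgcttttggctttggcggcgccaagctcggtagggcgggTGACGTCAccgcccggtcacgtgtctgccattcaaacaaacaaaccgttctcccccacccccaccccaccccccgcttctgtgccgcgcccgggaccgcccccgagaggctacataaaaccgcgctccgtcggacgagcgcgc
Dusp2: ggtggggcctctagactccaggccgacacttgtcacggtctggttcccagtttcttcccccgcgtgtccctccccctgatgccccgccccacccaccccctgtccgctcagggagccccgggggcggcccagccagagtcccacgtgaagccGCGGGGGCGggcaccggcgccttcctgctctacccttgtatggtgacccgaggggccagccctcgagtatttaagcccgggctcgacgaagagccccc
Dusp5: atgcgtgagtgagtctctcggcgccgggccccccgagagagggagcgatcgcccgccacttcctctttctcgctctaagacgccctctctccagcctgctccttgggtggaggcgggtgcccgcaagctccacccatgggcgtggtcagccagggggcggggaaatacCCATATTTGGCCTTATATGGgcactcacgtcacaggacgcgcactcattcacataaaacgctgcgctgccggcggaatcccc
Spry2: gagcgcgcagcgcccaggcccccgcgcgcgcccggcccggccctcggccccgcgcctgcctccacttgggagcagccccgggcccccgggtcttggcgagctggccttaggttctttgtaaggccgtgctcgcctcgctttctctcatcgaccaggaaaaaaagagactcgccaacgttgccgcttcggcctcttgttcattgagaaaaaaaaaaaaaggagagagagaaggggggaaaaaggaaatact

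By *Cd4* and *Cd8b1* the arrays fit their labels for the T cell subset. *Cd4* was at a log2 level of 11.50 or more on all 6 CD4+ arrays and at 6.89 or less on the CD8+ arrays. *Cd8b1* was at 10.98 or more on all 4 CD8+ arrays and at 5.63 or less elsewhere. *Cd8a* read 12.81 to 12.98 on the CD8+ arrays but was not evenly low on the CD4+ arrays. It read 7.67 and 8.17 in CD4+ TEM, 3.93 and 5.38 in CD4+ memory, and 5.16 and 4.99 in naïve CD4+ cells. A further check concerns the second naïve CD8+ array, which stands apart in the female transcript *Xist* (3.97, against 11.94 or more on the other 9 arrays) and in the immediate early and stress genes described below. CD8+ values against each naïve CD8+ array alone are also given below for many of the genes that depended on it, but not for all. The *Gapdh* 3′ probe set exceeded the 5′ probe set by 0.91 to 1.72 log2 units on the arrays of cultured cells, against 2.42 to 2.75 on the naïve arrays. The mean level of 10 measured B cell genes was 5.78 to 6.08 in CD4+ TEM, 6.33 to 6.70 in CD4+ memory, 3.78 to 3.83 in naïve CD4+, 5.78 to 6.13 in CD8+ TEM and 4.24 to 5.55 in naïve CD8+ cells, and 8 myeloid genes averaged 3.73 to 4.82 and 2 erythroid genes 3.09 to 3.93 over all arrays. None of these shifts was tested for its part in the results.

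**Figure D1:**
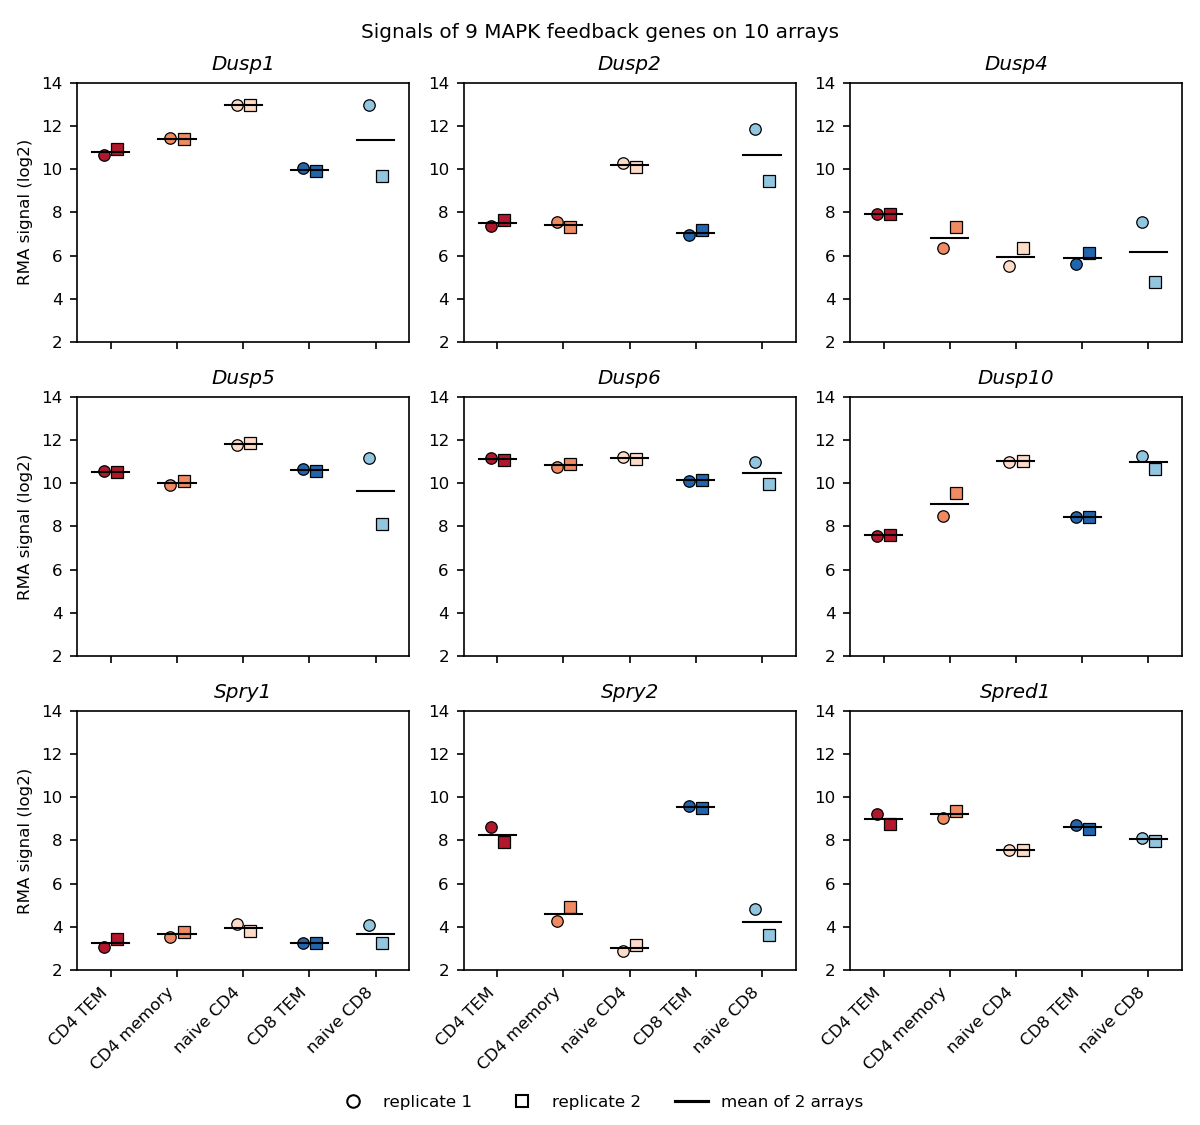
RMA signal on the log2 scale of the 9 genes on each of the 10 arrays, by group, with replicate 1 as a circle, replicate 2 as a square and the group mean as a line. *Spry2* stands high in both TEM groups, *Dusp2* and *Dusp10* stand lower in every cultured group than in its naïve cells, and the naïve CD8+ pair is far apart for *Dusp1*, *Dusp2*, *Dusp4* and *Dusp5*.

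Of the 9 genes, 4 were called in CD4+ TEM against naïve CD4+ cells, with *Spry2* and *Spred1* higher and *Dusp2* and *Dusp10* lower, where 26.5% of all genes were called (16.4% higher and 10.1% lower). The median log2 fold change of the 9 genes was -0.69, beside 0.02 over all genes. In CD8+ TEM against naïve CD8+ cells 3 of 9 were called, *Spry2* higher and *Dusp2* and *Dusp10* lower, where 38.1% of all genes were called (20.9% higher and 17.2% lower), and the medians were -0.35 and 0.06. In CD4+ memory against naïve CD4+ cells the calls were again 4 of 9, *Spry2* and *Spred1* higher and *Dusp2* and *Dusp10* lower, where 23.2% of all genes were called (13.5% higher and 9.78% lower), and the medians were -0.35 and 0.08. The CD4+ TEM and memory comparisons share the naïve CD4+ arrays. Arrays of the cultured and naïve cells did not overlap for 8 of 9 genes in CD4+ TEM, 9 of 9 in CD4+ memory and 4 of 9 in CD8+ TEM cells, where 63.2%, 59.1% and 69.7% of all genes did not overlap.

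**Figure D2:**
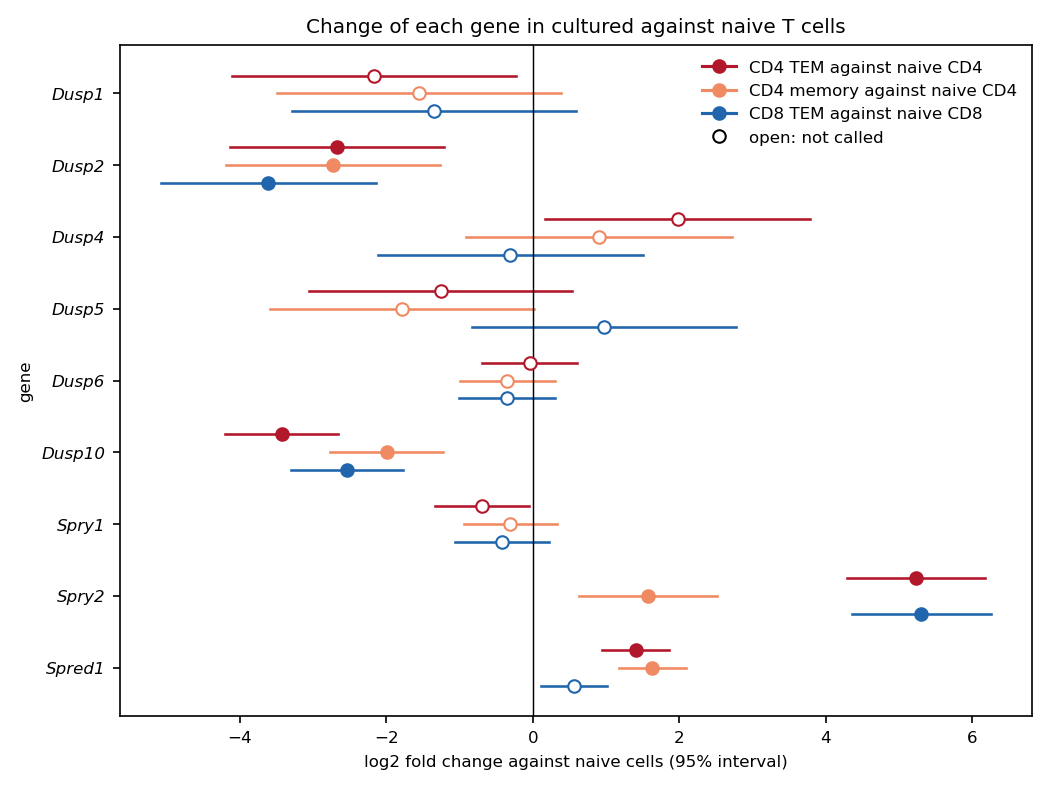
Log2 fold change of each gene in CD4+ TEM, CD4+ memory and CD8+ TEM cells against naïve cells of the same lineage, with 95% intervals from the limma fit. Filled points passed an adjusted p under 0.05, and the widest intervals are those of *Dusp1*, *Dusp4* and *Dusp5*.

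*Spry2*, which encodes a Sprouty inhibitor of the Ras to ERK pathway, had the largest rise of the 9 genes, 37.6-fold in CD4+ TEM and 39.6-fold in CD8+ TEM cells. Its level was 8.61 and 7.93 on the CD4+ TEM arrays, 4.28 and 4.94 on the CD4+ memory arrays, and 2.88 and 3.19 on the naïve CD4+ arrays. On the CD8+ TEM arrays it was 9.59 and 9.50, against 4.84 and 3.63 on the naïve CD8+ arrays. All 4 TEM arrays therefore lay above all 6 other arrays, and the memory arrays lay above the naïve CD4+ arrays and overlapped the naïve CD8+ ones. The log2 fold change was 5.23 in CD4+ TEM against naïve CD4+ cells (SE 0.41, 37.6-fold, adjusted p = 4.83e-05) and 5.31 in CD8+ TEM against naïve CD8+ cells (SE 0.41, 39.6-fold, adjusted p = 2.86e-05), both by limma with Benjamini-Hochberg adjustment over all 18193 genes. In CD4+ memory against naïve CD4+ cells it was 1.58 (SE 0.41, 2.99-fold, adjusted p = 0.0257), and CD4+ TEM cells exceeded memory cells by 3.65 (SE 0.41, 12.6-fold, adjusted p = 0.00221). The rise in memory cells lost its call without the second memory array (1.25, adjusted p = 0.119) or without the first or second naïve CD4+ array (adjusted p = 0.132 and 0.0791), within a range over the alternatives of 0.00947 to 0.132, while both TEM calls held in every alternative run. Bulk RNA of this kind cannot tell more cells with *Spry2* RNA from more *Spry2* RNA per cell.

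*Spry2* lies at chr14:105891947-105896819 (GRCm38.p6), and of its 2 probe sets only 1436584_at carried this signal. The second, 1421656_at, read between 3.03 and 3.67 on all 10 arrays and was not called in any comparison. The part of the B cell genes, whose mean level was higher in all cultured groups than in naïve CD4+ cells, in the *Spry2* values was not tested. Neither TEM group was shown to differ from the other in its rise, with a difference between the changes of -0.07 (95% interval -1.41 to 1.26, adjusted p = 0.956). Set side by side, CD4+ TEM cells were below CD8+ TEM cells by 1.27 on average without passing the test (log2 fold change -1.27, adjusted p = 0.121), although the arrays did not overlap.

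The *Spred1* product also restrains Ras signaling, and its gene (chr2:117121071-117182279) was higher in cultured cells by a much smaller factor. Its level was 9.22 and 8.74 in CD4+ TEM cells, 9.03 and 9.39 in CD4+ memory cells, and 7.57 and 7.58 in naïve CD4+ cells. The CD8+ TEM arrays were at 8.70 and 8.52, against 8.11 and 7.99 in naïve CD8+ cells. Every cultured array was above every naïve array, and CD4+ TEM and memory cells overlapped. The rise was 1.41 in CD4+ TEM cells (SE 0.20, 2.65-fold, adjusted p = 0.00115) and 1.63 in CD4+ memory cells (SE 0.20, 3.1-fold, adjusted p = 0.000673). In CD8+ TEM cells the log2 fold change was 0.56 (SE 0.20, 1.48-fold) with an adjusted p of 0.0548, on the edge of the threshold: over the alternatives this adjusted p ran from 0.00217 to 0.24. The CD4+ change exceeded the CD8+ change by 0.84 (95% interval 0.20 to 1.49), which did not pass after adjustment (adjusted p = 0.0942). This difference is that of the brightest *Spred1* probe set, 1460116_s_at. The other *Spred1* probe sets gave differences from -0.53 (1423162_s_at) to 0.67 (1428777_at), with 0.05 for 1423161_s_at, and none was called.

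*Spred1* has 8 probe sets on the array. Fitted one by one, 5 of them were called higher in CD4+ TEM cells with log2 fold changes of 1.21 to 1.93, 6 in CD4+ memory cells (0.79 to 2.01) and 3 in CD8+ TEM cells (0.73 to 1.43), and none was called lower. Of all probe sets with a single gene, 24.7%, 21.3% and 34.6% were called in these comparisons in either direction. Probe sets 1443652_x_at and 1445228_at were dim, below 5 on every array, and the first of them gave the lowest of the 6 memory calls (0.79). The brighter 1423162_s_at, at 5.94 to 7.90, was not called in CD4+ TEM, CD4+ memory or CD8+ TEM cells (0.13, 0.62 and 0.66). The 8 probe sets therefore agreed in direction wherever a call was made, and *Spred1* in CD8+ TEM cells depended on which of them stood for the gene.

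**Figure D3:**
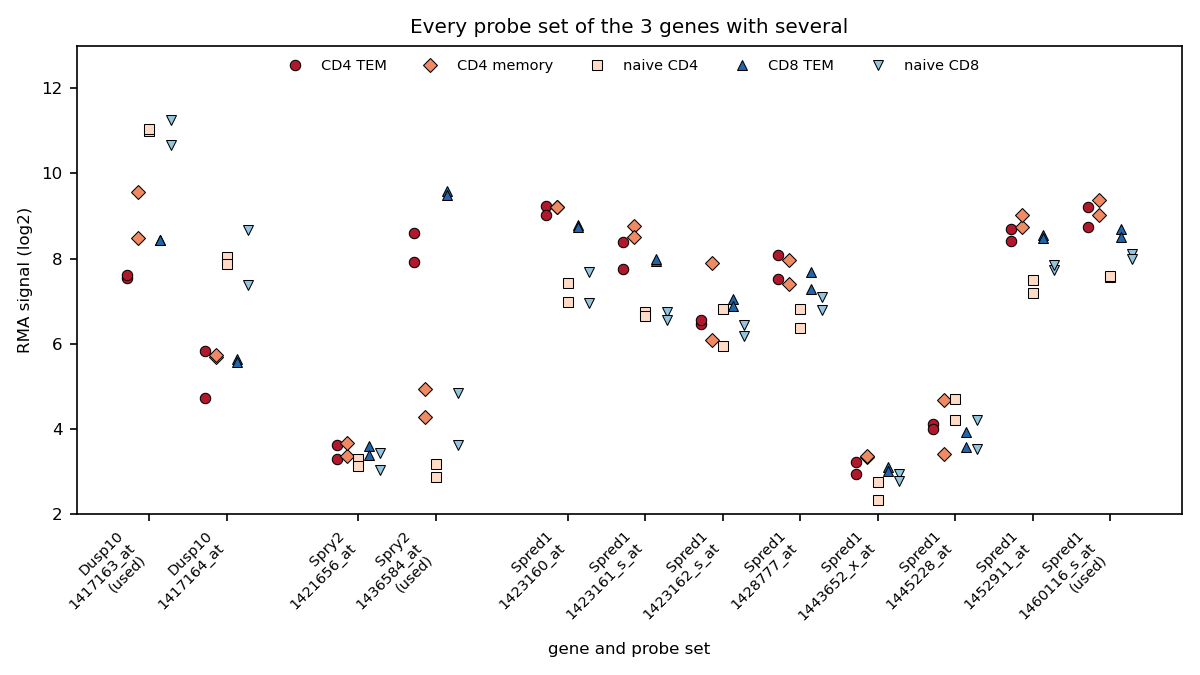
RMA signal on the log2 scale of every probe set of *Dusp10*, *Spry2* and *Spred1* on the 10 arrays, by group. Both *Dusp10* probe sets are lower in cultured than in naïve cells, and 1 of the 2 *Spry2* probe sets stays between 3.03 and 3.67. The brighter *Spred1* probe sets shift upward together except 1423162_s_at, whose cultured and naïve CD4+ arrays overlap.

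*Spry1*, the other Sprouty gene of the set (chr3:37639947-37644599), was dim on all arrays. It read 3.09 and 3.45 in CD4+ TEM, 3.52 and 3.79 in CD4+ memory, 4.12 and 3.80 in naïve CD4+, 3.26 and 3.26 in CD8+ TEM, and 4.09 and 3.26 in naïve CD8+ cells. With no array above 4.12, its log2 fold changes of -0.69, -0.30 and -0.42 in CD4+ TEM, CD4+ memory and CD8+ TEM cells were not called (adjusted p = 0.11, 0.502 and 0.296). Among the 4 Sprouty and Spred genes outside the set, 0 were called in CD4+ TEM cells and 0 in CD4+ memory cells. In CD8+ TEM cells *Spry3* was called higher (0.53, adjusted p = 0.0496) and *Spred2* lower (-0.73, adjusted p = 0.0234), and the medians of the 4 were 0.02, 0.05 and 0.43 in CD4+ TEM, CD4+ memory and CD8+ TEM cells. *Spry3* was dim as well, at 2.94 and 3.45 in CD8+ TEM against 2.61 and 2.71 in naïve CD8+ cells, with no array above 3.45. Both calls depended on the naïve CD8+ arrays, as given below.

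*Dusp10*, whose enzyme acts on JNK and p38, fell in every cultured group. Its level was 7.55 and 7.62 in CD4+ TEM cells, 8.47 and 9.57 in CD4+ memory cells, and 10.99 and 11.04 in naïve CD4+ cells. CD8+ TEM cells had 8.43 on both arrays, against 11.26 and 10.67 in naïve CD8+ cells. The 4 naïve arrays were all higher than the 6 cultured ones, with memory cells in between and the CD4+ TEM arrays lowest. The log2 fold change was -3.43 in CD4+ TEM cells (SE 0.33, 10.8-fold lower, adjusted p = 0.000158), -2.54 in CD8+ TEM cells (SE 0.33, 5.8-fold lower, adjusted p = 0.000484) and -1.99 in CD4+ memory cells (SE 0.33, 3.98-fold lower, adjusted p = 0.00359), and all 3 calls held in every alternative run.

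The gene lies at chr1:184034381-184075636, and its second probe set, 1417164_at, was called lower in the same 3 comparisons, by -2.68, -2.42 and -2.24. Between CD4+ TEM and CD4+ memory cells the log2 fold change of *Dusp10* was -1.43 (SE 0.33, 2.7-fold lower, adjusted p = 0.0487), while 1417164_at gave -0.44 (adjusted p = 0.659). This call rests on the threshold. Without the first or second CD4+ TEM array the adjusted p was 0.184 and 0.161, without the second memory array the log2 fold change was -0.89 (adjusted p = 0.0857), and leaving out any of the other arrays except the first memory array gave 0.0538 to 0.0914. Over all alternatives the adjusted p ran from 0.0056 to 0.221.

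*Dusp2*, a nuclear phosphatase found mainly in blood cells, also fell in every cultured group. Its level was 7.36 and 7.62 in CD4+ TEM cells, 7.57 and 7.30 in CD4+ memory cells, and 10.26 and 10.07 in naïve CD4+ cells. CD8+ TEM cells were at 6.93 and 7.16, against 11.87 and 9.43 in naïve CD8+ cells. All 6 cultured arrays lay below all 4 naïve arrays, and CD4+ TEM and memory cells overlapped. The log2 fold change was -2.67 in CD4+ TEM cells (SE 0.63, 6.38-fold lower, adjusted p = 0.0155), -3.61 in CD8+ TEM cells (SE 0.63, 12.2-fold lower, adjusted p = 0.00228) and -2.73 in CD4+ memory cells (SE 0.63, 6.64-fold lower, adjusted p = 0.0164). The CD8+ call held in every alternative. With 1 array fewer the CD4+ TEM call was lost without either CD4+ TEM array (adjusted p = 0.0795 and 0.0568) or either naïve CD4+ array (0.0797 and 0.0671), and the memory call without the second memory array (0.0638) or either naïve CD4+ array (0.0849 and 0.0717), while the log2 fold change stayed between -2.54 and -2.82. The SE of *Dusp2* pools all groups, and with the naïve CD8+ pair left out its CD4+ TEM and memory calls had adjusted p-values of 6.99e-05 and 8.55e-05, from ranges over the alternatives of 6.99e-05 to 0.0797 and 8.55e-05 to 0.0849.

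*Dusp1*, the gene of a nuclear phosphatase for p38 and JNK (chr17:26505591-26508472), was lower in the CD4+ cultures on every array. It read 10.66 and 10.91 in CD4+ TEM cells, 11.42 and 11.39 in CD4+ memory cells, and 12.98 and 12.94 in naïve CD4+ cells. Its CD8+ TEM levels were 10.04 and 9.92, against 12.98 and 9.67 in naïve CD8+ cells, so that the CD8+ TEM arrays lay between the naïve ones. The log2 fold changes of -2.17 in CD4+ TEM (SE 0.84, 4.5-fold), -1.55 in CD4+ memory (SE 0.84, 2.93-fold) and -1.35 in CD8+ TEM cells (SE 0.84, 2.54-fold) did not pass (adjusted p = 0.1, 0.24 and 0.266). The SE comes from all 5 groups and carries the gap of 3.31 between the naïve CD8+ arrays. With both naïve CD8+ arrays left out, an alternative chosen after seeing the data, *Dusp1* was called lower in CD4+ TEM (adjusted p = 6.38e-05, range over the alternatives 6.38e-05 to 0.277) and in CD4+ memory cells (0.000353, range 0.000353 to 0.441).

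*Dusp5*, which encodes a nuclear phosphatase specific for ERK (chr19:53529145-53541809), was also lower in both CD4+ cultures than in naïve CD4+ cells, here with memory cells lowest. It read 10.55 and 10.52 in CD4+ TEM cells, 9.93 and 10.08 in CD4+ memory cells, and 11.74 and 11.85 in naïve CD4+ cells. In CD8+ TEM cells it read 10.64 and 10.58, against 11.17 and 8.11 in naïve CD8+ cells. Both CD4+ cultures lay below naïve CD4+ cells without overlap, while the CD8+ TEM arrays again lay between the 2 naïve CD8+ arrays. The log2 fold change was -1.26 in CD4+ TEM (SE 0.78, adjusted p = 0.303), -1.78 in CD4+ memory (SE 0.78, adjusted p = 0.147) and 0.97 in CD8+ TEM cells (SE 0.78, adjusted p = 0.395). With both naïve CD8+ arrays left out, the CD4+ TEM and memory values were called lower (adjusted p = 0.000449 and 0.000125, ranges over the alternatives 0.000449 to 0.521 and 0.000125 to 0.334).

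*Dusp4*, the gene of a nuclear phosphatase for ERK and JNK (chr8:34807610-34819894), had its highest group mean in CD4+ TEM cells. Its level was 7.90 on both CD4+ TEM arrays, 6.35 and 7.32 in CD4+ memory cells, and 5.51 and 6.34 in naïve CD4+ cells. Among CD8+ cells, TEM arrays were at 5.60 and 6.14, against 7.56 and 4.79 in naïve CD8+ cells. The CD4+ TEM arrays were above the other 8, and the CD8+ TEM arrays lay between the 2 naïve CD8+ arrays. The log2 fold change was 1.98 in CD4+ TEM (SE 0.79, 3.93-fold, adjusted p = 0.108), 0.91 in CD4+ memory (SE 0.79, adjusted p = 0.478) and -0.31 in CD8+ TEM cells (SE 0.79, adjusted p = 0.819), none of them called. With both naïve CD8+ arrays left out *Dusp4* was called higher in CD4+ TEM against naïve CD4+ cells (adjusted p = 0.0105, range over the alternatives 0.0105 to 0.361).

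*Dusp6*, whose product is the cytoplasmic ERK phosphatase (chr10:99263231-99267489), had the narrowest range of group means after *Spry1*, 1.03 log2 units. It read 11.16 and 11.08 in CD4+ TEM, 10.77 and 10.87 in CD4+ memory, and 11.19 and 11.13 in naïve CD4+ cells. CD8+ TEM arrays read 10.10 and 10.16, against 10.99 and 9.98 in naïve CD8+ cells. CD4+ TEM and naïve CD4+ arrays overlapped, with a log2 fold change of -0.04 (95% interval -0.69 to 0.61, adjusted p = 0.941). The values of -0.35 in both CD4+ memory and CD8+ TEM cells were not called either (adjusted p = 0.447 and 0.393).

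Within the set the second naïve CD8+ array stood apart from the first. All 9 genes were lower on it than on the first, 6 of them at least 2-fold, where 1.95% of all genes were at least 2-fold lower and 2.34% at least 2-fold higher. The gaps were 3.31 for *Dusp1* (9.89-fold), 3.06 for *Dusp5* (8.37-fold), 2.77 for *Dusp4* (6.83-fold), 2.44 for *Dusp2* (5.42-fold), 1.20 for *Spry2* (2.3-fold) and 1.01 for *Dusp6* (2.01-fold). *Spry1*, *Dusp10* and *Spred1* were under 2-fold apart. These are 2 single arrays and the gap has no replicate check. In the other groups 0 of 9 genes were 2-fold apart in CD4+ TEM, naïve CD4+ and CD8+ TEM cells, where 2.68%, 1.75% and 0.912% of all genes were, and 1 of 9 in CD4+ memory cells, *Dusp10*, where 6.89% of all genes were. The median gap of the 9 genes was 1.20 in the naïve CD8+ pair, beside 0.21 over all genes.

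**Figure D4:**
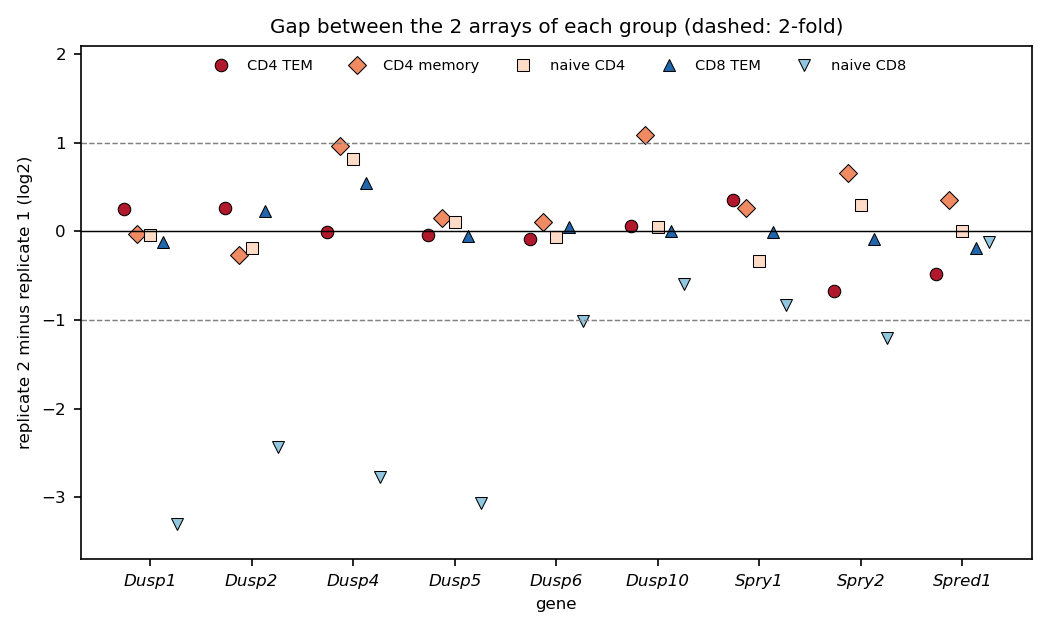
Replicate 2 minus replicate 1 on the log2 scale for each of the 9 genes, by group, with dashed lines at a 2-fold gap. The naïve CD8+ points lie below 0 for all 9 genes and near or beyond -1 for 6 of them, and *Dusp10* in CD4+ memory cells is the single other point beyond a dashed line.

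Immediate early and stress genes moved with this array. Of 17 measured, 14 were at least 2-fold lower on the second naïve CD8+ array than on the first, and their mean level was 7.40 there and 11.01 on the first, against 10.20 and 10.30 on the naïve CD4+ arrays. *Fos*, an AP-1 subunit gene, read 7.09 on the second naïve CD8+ array and 13.06 on the first, and *Nr4a1*, a gene induced by T cell receptor signals, read 5.0 and 10.30. Of 15 genes that ERK signaling is known to induce, 5 were at least 2-fold lower there. B cell genes moved the other way, with 5 of 10 at least 2-fold higher, as were 3 of 8 myeloid genes. The part of any of these in the values of the 9 genes was not tested.

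The CD8+ comparison depended on which of these arrays was used. Against the first array alone 8 of the 9 genes were called, where 35.2% of all genes were, with *Dusp1* at -3.0 (adjusted p = 4.75e-05), *Dusp4* at -1.69 (0.0343), *Dusp5* at -0.56 (0.0256), *Dusp6* at -0.86 (0.00375) and *Spry1* at -0.83 (0.0294) added to *Spry2*, *Dusp2* and *Dusp10*. Against the second alone, where 32.5% of all genes were called, *Dusp1* was at 0.31 (adjusted p = 0.226), *Dusp4* at 1.08 (0.149) and *Dusp6* at 0.15 (0.505), and *Dusp5* was called higher at 2.50 (7.06e-05). *Dusp5* was thus called in opposite directions against the 2 arrays. In both of these fits the lone naïve CD8+ array is assumed to vary like the other groups. The falls of *Dusp2* and *Dusp10* and the rise of *Spry2* were called against either array, with *Dusp2* at -4.83 against the first and -2.39 against the second.

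Compared between lineages, the CD4+ change differed from the CD8+ change past the threshold for 0 of the 9 genes, where 12.5% of all genes did. At an unadjusted p under 0.05, *Spred1* was the 1 gene of the 9 to pass, where 26.1% of all genes did. This *Spred1* value is that of its brightest probe set, and its other probe sets differed less between lineages, as given above. The largest differences in size were those of *Dusp4* (2.28, 95% interval -0.28 to 4.85, adjusted p = 0.246) and *Dusp5* (-2.23, -4.77 to 0.31, adjusted p = 0.254). Without the second naïve CD8+ array *Dusp1* (0.83, adjusted p = 0.0494), *Dusp2* (2.15, 0.00655), *Dusp4* (3.67, 0.0152) and *Dusp6* (0.81, 0.0342) were called, where 13.5% of all genes were, all with the CD4+ change above the CD8+ one. Without the first, *Dusp1* (-2.48, adjusted p = 0.00288) and *Dusp5* (-3.76, 0.00102) were called, where 10.2% of all genes were, with the CD4+ change below the CD8+ one.

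CD4+ TEM and CD4+ memory cells, both of day 25, differed in 2 of the 9 genes, *Spry2* higher and *Dusp10* lower in TEM cells as given above, where 5.52% of all genes were called (3.89% higher and 1.64% lower). The other 7 log2 fold changes lay between -0.62 for *Dusp1* and 1.07 for *Dusp4*, with adjusted p-values of 0.488 or more. *Dusp4* read 7.90 on both TEM arrays, against 6.35 and 7.32 in memory cells, with a 95% interval of -0.75 to 2.88.

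Between CD4+ TEM and CD8+ TEM cells 0 of the 9 genes were called by limma, where 5.72% of all genes were called. At an unadjusted p under 0.05 there were 4, where 20.2% of all genes passed: *Dusp4* (log2 fold change 2.03, 95% interval 0.22 to 3.84, adjusted p = 0.193), *Dusp6* (0.99, 0.34 to 1.64, adjusted p = 0.086), *Dusp10* (-0.84, -1.61 to -0.08, adjusted p = 0.202) and *Spry2* (-1.27, -2.22 to -0.33, adjusted p = 0.121). The arrays did not overlap for 8 of 9 genes, all but *Spry1*, where 56.8% of all genes did not overlap. With both naïve CD8+ arrays left out, *Dusp1* (0.81, adjusted p = 0.0225), *Dusp4* (0.0346) and *Dusp6* (0.00816) were called higher in CD4+ TEM cells, where 6.76% of all genes were called in either direction, from ranges over the alternatives of 0.0225 to 0.876, 0.0232 to 0.527 and 0.00816 to 0.307.

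Ordered by group mean, the levels fell into a few layouts. *Dusp10* ran from naïve CD4+ and naïve CD8+ cells, which overlapped, to CD4+ memory, CD8+ TEM and then CD4+ TEM cells. Arrays of the last 3 groups did not overlap, but 1 memory array (8.47) was next to the CD8+ TEM arrays (8.43). The means of CD4+ memory and CD8+ TEM cells differed by 0.59, less than the sum of their SDs (0.77), and were not tested against each other. For *Dusp2* the naïve groups overlapped at the top, followed by CD4+ TEM and memory cells, which overlapped, and CD8+ TEM cells. *Spry2* ran from CD8+ TEM to CD4+ TEM cells and then to memory and naïve CD8+ cells, which overlapped, with naïve CD4+ cells lowest. For *Dusp1*, *Dusp4*, *Dusp5* and *Dusp6* the position of naïve CD8+ cells overlapped its neighbors in the order. Over the 10 arrays, each gene centered on its mean, the members nearest to each other were *Dusp6* and *Spry1* (root mean square distance 0.39 log2 units) and *Dusp2* and *Dusp10* (0.78), and the farthest were *Dusp2* and *Spry2* (3.83). The distance is not scaled, so genes that change little lie near each other whatever their layout. *Spry1* and *Dusp6* had the narrowest ranges of group means, 0.70 and 1.03.

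Outside the set, the phosphatase genes with the largest changes were *Dusp3* and *Dusp16*. *Dusp16*, whose product acts on JNK, read 9.34 and 9.39 in CD4+ TEM, 9.83 and 9.18 in CD4+ memory, and 4.63 and 5.35 in naïve CD4+ cells. In CD8+ TEM cells it read 9.45 and 9.49, against 6.38 and 6.46 in naïve CD8+ cells. Every cultured array was above every naïve array, and the log2 fold change was 4.38 in CD4+ TEM, 3.05 in CD8+ TEM and 4.52 in CD4+ memory cells (adjusted p = 1.43e-05, 6e-05 and 1.65e-05). Of the 5 MAP kinase phosphatases outside the set, 2 were called higher and 1 lower in each TEM comparison, and 1 each way in memory cells, with median log2 fold changes of 0.16, 0.29 and 0.09 in CD4+ TEM, CD8+ TEM and memory cells. *Dusp9* was the other called higher in the TEM groups (1.42 and 2.21), and *Dusp7*, a cytoplasmic ERK phosphatase gene, was called lower in CD4+ TEM, CD8+ TEM and CD4+ memory cells (-1.10, -1.83 and -1.06).

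*Dusp3* encodes an atypical small phosphatase that acts on ERK and JNK. Its level was 10.12 and 9.80 in CD4+ TEM, 8.76 and 9.72 in CD4+ memory, and 2.63 and 2.92 in naïve CD4+ cells. Levels in CD8+ TEM cells were 10.44 and 10.06, against 3.14 and 4.32 in naïve CD8+ cells. The cultured and naïve arrays were far apart, with log2 fold changes of 7.19 in CD4+ TEM, 6.52 in CD8+ TEM and 6.47 in CD4+ memory cells (adjusted p = 1.07e-05, 1.2e-05 and 2.71e-05). Of the 16 atypical phosphatases, 5 were called higher and 1 lower in CD4+ TEM, 6 and 2 in CD8+ TEM, and 4 and 2 in CD4+ memory cells, with medians of 0.14, 0.11 and 0.11. *Epm2a*, the gene of the glycogen phosphatase laforin, was called higher in all 3 (3.0, 1.83 and 2.71), as was *Dusp22* (2.52, 1.75 and 1.86), and *Dusp14* rose in CD4+ TEM and CD8+ TEM cells (2.0 and 2.74) and was at 0.05 in memory cells (adjusted p = 0.91).

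On the list of genes upstream of the kinases, the exchange factor genes *Rasgrp2* and *Rasgrp4* changed in opposite directions. *Rasgrp2* read 4.82 and 4.61 in CD4+ TEM, 6.73 and 6.62 in CD4+ memory, and 9.23 and 9.27 in naïve CD4+ cells, and in CD8+ TEM cells it read 4.74 and 4.65, against 10.60 on both naïve CD8+ arrays. *Rasgrp4* read 9.06 and 9.04 in CD4+ TEM, 7.60 and 7.76 in CD4+ memory, and 4.30 and 4.60 in naïve CD4+ cells, and 8.04 and 8.07 in CD8+ TEM cells against 4.80 and 5.05 in naïve CD8+ cells. Groups and naïve cells were separate for both genes, with log2 fold changes in CD4+ TEM, CD8+ TEM and CD4+ memory cells of -4.54, -5.90 and -2.58 for *Rasgrp2* and 4.60, 3.13 and 3.23 for *Rasgrp4*. Of the 18 measured genes on this list of exchange factors and GTPase activators, 4 were called higher and 5 lower in CD4+ TEM, 2 and 10 in CD8+ TEM, and 6 and 2 in CD4+ memory cells, with medians of -0.12, -0.72 and -0.12. Among the activators of the Ras GTPase, *Rasa4* rose in CD4+ TEM, CD8+ TEM and memory cells (2.98, 2.33 and 1.90). *Rasa3* fell in CD4+ TEM and CD8+ TEM cells (-1.99 and -2.58) and was at -0.15 in memory cells (adjusted p = 0.596).

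For the kinases the calls went both ways. Of 15 genes of the ERK cascade, 1 was called higher and 3 lower in CD4+ TEM, 4 and 2 in CD8+ TEM, and 2 and 2 in CD4+ memory cells, with medians of 0.13, -0.02 and 0.16. *Map2k1*, the kinase of ERK, rose in CD4+ TEM, CD8+ TEM and memory cells (0.88, 1.38 and 0.76). *Araf*, a Raf kinase gene, fell in both TEM groups (-0.73 and -1.26) and was at -0.32 in memory cells (adjusted p = 0.249), and *Mapk6* fell in CD4+ TEM and memory cells (-1.71 and -1.54) and was at -0.58 in CD8+ TEM cells (adjusted p = 0.21). This CD8+ value of *Mapk6* was -1.14 against the first naïve CD8+ array alone and -0.01 against the second. *Mapk7* was called lower in CD8+ TEM cells (-1.16) and was at 0.54 and 0.52 in CD4+ TEM and memory cells (adjusted p = 0.0978 and 0.112). *Nras* was called lower in CD4+ TEM and memory cells (-0.72 and -1.14) and was at 0.52 in CD8+ TEM cells (adjusted p = 0.0683), and *Rras2* was called higher in memory cells (0.81) and was at 0.37 and 0.31 in CD4+ TEM and CD8+ TEM cells (adjusted p = 0.185 and 0.242). In CD8+ TEM cells *Nras* was at 0.82 and *Rras2* at 0.58 against the first naïve array alone, and at 0.22 and 0.03 against the second. Of 23 genes of the JNK and p38 cascades, 6 were called higher and 4 lower in CD4+ TEM, 6 and 8 in CD8+ TEM, and 5 and 2 in CD4+ memory cells, with medians of -0.04, -0.19 and 0.03. *Mapkapk2*, a substrate kinase of p38, rose in all 3 (1.92, 2.88 and 2.06). So did *Mapkapk3* (2.19, 1.39 and 1.69) and *Gadd45g* (1.87, 0.79 and 2.18), and *Mapk14*, a p38 gene, fell in all 3 (-1.12, -1.41 and -0.68). *Map3k8* rose in CD4+ TEM and memory cells (1.67 and 1.49) and fell in CD8+ TEM cells (-1.49), with the CD4+ TEM change above the CD8+ one by 3.16 (adjusted p = 0.0152). *Gadd45a*, whose product binds the upstream kinase of p38, fell in CD4+ TEM cells (-3.08) and was at -1.20 and -2.15 in CD8+ TEM and memory cells (adjusted p = 0.29 and 0.0871). *Mapk11* fell in CD4+ TEM and memory cells (-1.85 and -2.58) and was at 0.41 in CD8+ TEM cells (adjusted p = 0.596). Of 5 other phosphatases of the MAP kinases, *Ppm1a* was called lower in CD4+ TEM (-0.57) and *Ppp2r2a* in memory cells (-0.86), and 0 in CD8+ TEM cells. *Ppp2r2a* was at -0.39 in CD8+ TEM cells, at -0.74 against the first naïve array alone and at -0.04 against the second.

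Genes that ERK signaling is known to induce moved both ways. Of 15 measured, 7 were called higher and 3 lower in both TEM groups, and 5 and 4 in CD4+ memory cells. *Lif*, a cytokine gene, rose in CD4+ TEM, CD8+ TEM and CD4+ memory cells by 5.32, 5.20 and 5.42, as did *Hbegf* (3.63, 3.20 and 3.29), *Ier3* (3.28, 2.32 and 2.94) and *Ccnd1*, the cyclin D1 gene (2.93, 4.03 and 1.40). *Egr1* and *Egr2*, early growth response factor genes, fell in all 3 (-2.27, -3.23 and -3.41 for *Egr1*, and -2.45, -2.59 and -6.16 for *Egr2*). *Phlda1* fell in CD4+ TEM and memory cells (-2.87 and -4.24) and was at -1.55 in CD8+ TEM cells (adjusted p = 0.213). The median log2 fold changes of the list were -0.03, 0.36 and -0.04, beside 0.02, 0.06 and 0.08 over all genes. Against the first naïve CD8+ array alone 7 were called higher and 5 lower in CD8+ TEM cells, and against the second alone 6 and 3. *Egr2* was then at -3.53 and -1.65, and *Phlda1* at -3.23 (adjusted p = 0.000273) and 0.12 (adjusted p = 0.827).

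Immediate early and stress genes had more calls lower than higher in these comparisons, which in CD8+ TEM cells held against both naïve CD8+ arrays and against the first but not the second alone. Of 17 measured, 8 were called lower and 1 higher in CD4+ TEM, 5 and 1 in CD8+ TEM, and 7 and 1 in CD4+ memory cells, with median log2 fold changes of -1.67, -1.53 and -1.51, beside 0.02, 0.06 and 0.08 over all genes. Their mean level was 7.76 to 7.78 in CD4+ TEM, 7.78 to 7.79 in CD4+ memory, 10.20 to 10.30 in naïve CD4+, 7.58 on both CD8+ TEM arrays, and 7.40 to 11.01 in naïve CD8+ cells. Against the first naïve CD8+ array alone 15 of the 17 were called lower and 1 higher in CD8+ TEM cells, with a median of -2.45, and against the second alone 5 lower and 5 higher, with a median of -0.03. *Fos* read 5.08 and 4.29 in CD4+ TEM, 6.92 and 8.33 in CD4+ memory, and 12.88 and 12.86 in naïve CD4+ cells, with log2 fold changes of -8.18 in CD4+ TEM and -5.24 in CD4+ memory cells. In CD8+ TEM cells it read 4.12 and 4.72, against 13.06 and 7.09 in naïve CD8+ cells, and its log2 fold change of -5.65 was -8.64 against the first naïve array alone and -2.66 against the second. *Zfp36*, an mRNA decay factor gene, fell in CD4+ TEM, CD8+ TEM and memory cells (-3.35, -3.97 and -3.28), and *Atf3* rose in all 3 (4.29, 3.76 and 3.30). These CD8+ values were -4.64 and 2.58 against the first naïve array alone and -3.30 and 4.93 against the second. *Fosb* and *Nr4a1* fell in CD4+ TEM and memory cells (-5.42 and -5.48 for *Fosb*, -4.53 and -4.64 for *Nr4a1*) and were at -4.04 and -3.66 in CD8+ TEM cells (adjusted p = 0.0983 and 0.0656). *Hspa1b*, a heat shock gene, fell in memory cells (-8.75) and was at -5.08 and -1.53 in CD4+ TEM and CD8+ TEM cells (adjusted p = 0.152 and 0.67), where it was called at -6.03 against the first naïve CD8+ array and at 2.97 against the second. Of the 30 listed genes outside the set whose CD8+ calls are given here or above, the call was lost without 1 naïve CD8+ array for 4, *Spry3* without either, *Spred2* and *Map3k8* without the first, and *Gadd45g* without the second. The part of these genes in the values of the 9 was not tested.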

How the data were processed

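RNA of sorted T cells was measured on Affymetrix mouse expression arrays. The deposited table holds signals that the authors normalized by RMA in BRB-ArrayTools, on the log2 scale, from 1.68 to 14.86, and no raw intensities were used. RMA brings arrays to a common distribution and compresses changes of dim probe sets, and the number of arrays, 2 per group, limits the precision. Groups follow the sample titles and source names. A sample description naming germinal center B cells, a Foxo1 status and a series design on an edited lymphoma line do not match T cells and were set aside.

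Of 45101 probe sets, 64 are controls, 932 with several symbols and 9160 unnamed here were left out, and each of the resulting 18193 genes is represented by its brightest probe set on average. A group-means model with 5 residual degrees of freedom was fitted to all 10 arrays in R 4.3.3 with limma 3.58.1 and adjusted by Benjamini-Hochberg over all genes; genes with an adjusted p under 0.05 are called. The 6 comparisons share 1 estimate of the spread for each gene. Promoter sequences and gene positions are those of RefSeq, GRCm38.p6, and figures used matplotlib 3.10.9.

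All 9 genes are named, and the further probe sets of *Dusp10*, *Spry2* and *Spred1* were also fitted on their own. Of each pathway list, up to 3 called genes with the largest change in each comparison against naïve cells are named. The 2 genes nearest to a member over the arrays are named where its group means span at least 2 log2 units. Members, lists and tests were chosen with earlier results of these data known. Alternatives were the choice of probe set, filters on dim or little varying genes, a mean-variance trend, fewer arrays, the replicate number as a block, a common median, a 2-fold limit and leaving out each array.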

Additional observations from a re-analysis of the deposited data

How the results depend on the processing

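Each log2 fold change of a member was recomputed under the alternatives, 1044 values in all: 943 kept their direction and their side of the threshold, 61 kept the direction and passed only in the alternative, 24 lost their call and 16 changed sign. The fit with both naïve CD8+ arrays left out, and for the pathway lists those without 1 of them, were chosen after seeing the data. Members called in CD4+ TEM against naïve CD4+ cells were 4, but 7 with only the arrays compared, 7 by the 2-fold limit and 8 with the naïve CD8+ arrays left out. In CD4+ TEM against CD4+ memory cells 2 were called, but 1 with the mean of all probe sets, with every probe set on its own, with only the arrays compared and with the replicate block. In CD4+ TEM against CD8+ TEM cells 0 were called, but 1 with a mean-variance trend and 4 with only the arrays compared. The 2-fold limit gave 2 there, and leaving out the naïve CD8+ arrays gave 3, where 6.76% of all genes were called. For the difference between the changes 0 were called, but 2 by the 2-fold limit. For the other raised counts, the share of all genes called under the same setting is not given here. Those counts therefore cannot show whether members were called more often than other genes. Leaving out each array in turn gave 3 to 8 members in CD4+ TEM, 3 to 8 in CD8+ TEM and 2 to 6 in CD4+ memory cells, 0 to 4 for the difference, 1 to 2 for CD4+ TEM against memory and 0 to 3 for CD4+ TEM against CD8+ TEM cells. The genes called ran in the same order from 3185 to 5346 (4825 with all arrays), 5230 to 7389 (6926), 2575 to 4497 (4227), 982 to 2774 (2278), 490 to 1140 (1005) and 219 to 1436 (1041). Every probe set on its own gave 8627, 12093, 7443 and 1787 called probe sets in CD4+ TEM, CD8+ TEM, CD4+ memory and CD4+ TEM against CD8+ TEM cells, from a table of more features, and only the arrays compared gave 223 genes for CD4+ TEM against memory cells. Deviations of arrays with the same replicate number correlated between -0.04 and 0.03 over all genes. With 2 arrays per group this cannot show whether such arrays share an animal, culture or batch. The replicate block changed the call of no member other than *Dusp10* in CD4+ TEM against memory cells (adjusted p = 0.0714). Signs turned for *Spry1* in CD4+ TEM against CD8+ TEM cells at a common median (-0.040). Leaving out each array in turn also turned signs, with these lowest and highest log2 values. In CD8+ TEM against naïve CD8+ cells *Dusp1* ran from -3.0 to 0.31, *Dusp4* from -1.69 to 1.08, *Dusp5* from -0.56 to 2.50 and *Dusp6* from -0.86 to 0.15. The difference between the changes ran from -2.48 to 0.83 for *Dusp1*, -0.29 to 2.15 for *Dusp2*, -0.20 to 0.81 for *Dusp6*, -0.69 to 0.14 for *Spry1* and -0.67 to 0.53 for *Spry2*. CD4+ TEM against memory cells ran from -0.074 to 0.19 for *Dusp2* and -0.46 to 0.012 for *Spred1*, and CD4+ TEM against CD8+ TEM cells from -0.17 to 0.19 for *Spry1*. The cause was not tested.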

Other observations

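For the 6 members whose group means span at least 2 log2 units, the genes with the most similar layout over the 10 arrays were found by the root mean square difference after each gene was centered on its mean, among 18193 genes and with no test. The arrays share their groups and the second naïve CD8+ array, so that likeness follows these as well.

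*Spry2* was nearest to *Cxcl10*, a chemokine gene induced by interferon (0.52 log2 units), with mean levels of 8.95 in CD4+ TEM, 5.92 in CD4+ memory, 4.61 in naïve CD4+, 11.43 in CD8+ TEM and 6.14 in naïve CD8+ cells, and to *Procr*, the protein C receptor gene (0.60). *Dusp10* was nearest to *2810013P06Rik* (0.30) and to *Sbk1*, a kinase gene (0.35), which averaged 5.11 in CD4+ TEM, 6.90 in CD4+ memory, 8.56 in naïve CD4+, 5.39 in CD8+ TEM and 8.19 in naïve CD8+ cells. *Dusp2* lay closest to *Ccnl1*, a cyclin gene linked to splicing (0.37), and to *Nfkbid*, a regulator of NF-κB (0.50). *Dusp5* lay closest to *Hsp90aa1*, an inducible heat shock gene (0.36), and *Atcayos* (0.44), *Dusp1* to the probe sets annotated as *Mir1931* (0.45) and *Neto2* (0.51), and *Dusp4* to *Sema4c* (0.65) and *Cyp1a1* (0.65).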
